A study of Saccharomyces cerevisiae with 6 samples.

Results

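The genes described are the 9 that encode the enzymes of lysine synthesis and their activator in the budding yeast Saccharomyces cerevisiae: LYS20, LYS21, LYS4, LYS12, LYS2, LYS5, LYS9, LYS1 and LYS14. They were chosen by name, through the systematic name of each array probe, out of 6256 genes with a probe. Transcripts were measured on 6 single-colour Agilent arrays, 3 of F3, a sulfur dioxide-resistant mutant selected by evolutionary engineering, and 3 of the reference strain it is compared with. By the series' design text, both strains were grown as 3 cultures each in yeast minimal medium, at 30 °C and 150 rpm, to early exponential phase with no added sulfite named. The growth label adds an overnight culture in rich YPD medium, taken here as the preculture. Neither the lysine content of the medium nor any mutation or marker of the strains is given in the sources used here, and F3 is a single selected mutant.

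Yeast makes lysine by the aminoadipate pathway, a route of fungi that starts from 2-oxoglutarate and acetyl-CoA. Homocitrate synthase opens it and is inhibited by lysine, the end product. The intermediate aminoadipate semialdehyde works together with the zinc cluster protein Lys14 to switch on the LYS genes, and Gcn4, the general activator of amino acid synthesis, acts on many of them as well.

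All 9 genes were well above background on all 6 arrays, and no gene probe was saturated. A level below is the log2 processed signal minus the 75th percentile of the same array, and a difference is the mean level in F3 minus that in the reference. In intensity units, the 75th percentile ran from 8314 to 9534 over the F3 arrays and from 2791 to 4973 over the reference arrays. The 2 spots of a probe differed by at most 0.22 on the log2 scale for each of the 9 genes on each array. The F3 arrays shared 1 slide and 1 scan and the reference arrays came from other slides and scans, so strain and scan cannot be told apart. Reference replicates 1 and 2 shared a slide and a scan, and reference replicate 3 had a slide and a scan of its own. The scanner software's marks for a good grid and for negative controls within range were set on each reference array and on no F3 array.

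Most of the pathway was lower in F3. Relative to the 75th percentile, 7 of the 9 genes fell, 1 rose (LYS5) and 1 did not pass the test (LYS14), by limma with adjusted p under 0.05 over the 5948 genes tested. Over all tested genes 38.2% fell and 41.5% rose, 79.7% in either direction, so a call by itself was common. At least 2-fold decreases were called for 4 of the 9, LYS20, LYS4, LYS9 and LYS1, against 16.2% of all tested genes, and at least 2-fold increases for 0 of the 9, against 16.6%. The decreases numbered 2 of 9 with quantile normalization and 1 of 9 in the authors' deposited values, against 988 and 979 of the 5948 genes. In 8 of the 9 no F3 array overlapped the reference arrays, as in 82.4% of all tested genes. The median difference of the 9 genes was −0.88 on the log2 scale, beside 0.05 over all tested genes. These bulk cultures do not tell fewer expressing cells from less RNA per cell. These directions hold relative to the 75th percentile and reverse for most of the genes if arrays are scaled to spike-in RNAs, as given further on.

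**Figure D1:**
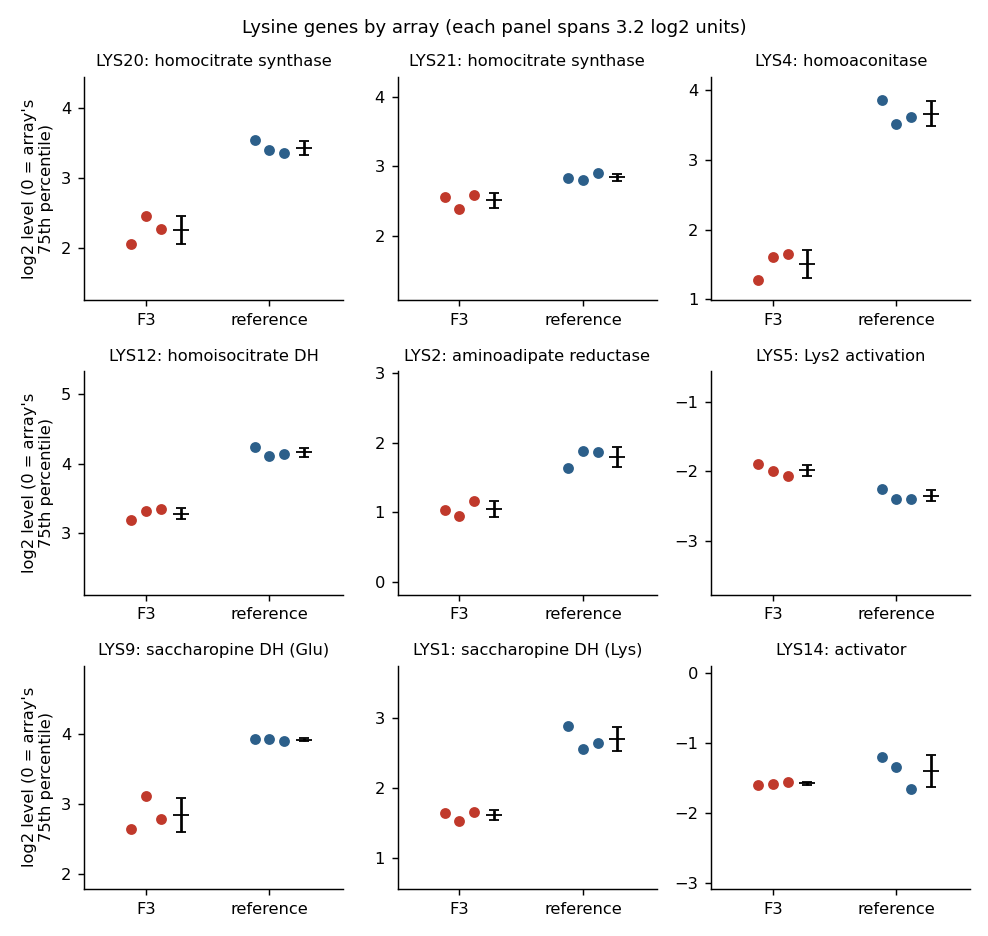
Level of each lysine gene on each array (points, log2 signal relative to the array's 75th percentile), F3 on the left and reference on the right, with the mean and SD of 3 arrays as black bars. The strains overlap only for LYS14, and LYS5 is the one gene with all F3 points above the reference points.

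LYS20 (YDL182W) and LYS21 (YDL131W), on chromosome IV, encode the isozymes of homocitrate synthase. LYS20 had levels of 2.05, 2.45 and 2.27 in F3, against 3.54, 3.40 and 3.35 in the reference. Each F3 array lay below each reference array by more than the spread within a strain. The difference was −1.17 ± 0.11 (SE, adjusted p = 1.55e-05), a level 2.25-fold lower in F3. LYS21 had levels of 2.56, 2.40 and 2.59 in F3, against 2.83, 2.80 and 2.90 in the reference. The strains did not overlap here either, but the gap was small, at −0.33 ± 0.08 (SE, adjusted p = 0.00475). The LYS21 call was lost with quantile normalization (−0.15, adjusted p = 0.133) and in the authors' deposited values (−0.13, adjusted p = 0.186).

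LYS4 (YDR234W, chromosome IV), homoaconitase of the mitochondrion, showed the widest gap of the 9. Its levels were 1.28, 1.61 and 1.64 in F3, against 3.86, 3.51 and 3.61 in the reference. The lowest reference array was above the highest F3 array by far more than the range within either strain. LYS4 fell by 2.15 on the log2 scale (SE 0.13, 95% interval −2.44 to −1.86, adjusted p = 7.15e-07), which is 4.43-fold. Only 4.98% of the tested genes had a lower difference. Before any scaling between arrays, its processed signal was already lower in F3, at 23121, 27647 and 25985 intensity units, against 40413, 55651 and 60700 in the reference, although the F3 arrays were brighter at the 75th percentile. The other members called lower did not show this. LYS21 had the higher unscaled signal on each F3 array, at 47699 to 56072 against 19887 to 37146 in the reference. For LYS20, LYS12, LYS2, LYS9 and LYS1 the unscaled signals of the strains overlapped.

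LYS12 (YIL094C, chromosome IX), homoisocitrate dehydrogenase, catalyses the next step, which yields 2-oxoadipate. Its levels were 3.19, 3.32 and 3.35 in F3, against 4.24, 4.11 and 4.14 in the reference. The groups were tight and did not overlap. LYS12 fell by 0.88 (SE 0.08, adjusted p = 9.6e-06). This value shrank to −0.54 with quantile normalization and to −0.50 in the authors' deposited values, both still called.

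LYS2 (YBR115C, chromosome II) encodes aminoadipate reductase, the enzyme that makes the semialdehyde. It had levels of 1.03, 0.94 and 1.17 in F3, against 1.63, 1.88 and 1.87 in the reference, with no overlap. LYS2 fell by 0.75 (SE 0.10, adjusted p = 1.2e-04). LYS5 (YGL154C, chromosome VII) encodes the phosphopantetheinyl transferase that turns the Lys2 protein into its active form. LYS5 went the other way: its levels were −1.90, −2.00 and −2.06 in F3, against −2.25, −2.39 and −2.40 in the reference. The groups did not overlap, and LYS5 rose by 0.36 (SE 0.08, adjusted p = 0.00296).

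LYS9 (YNR050C, chromosome XIV) and LYS1 (YIR034C, chromosome IX) encode the saccharopine dehydrogenases of the last steps: Lys9 forms saccharopine with glutamate, and Lys1 releases lysine from it. LYS9 had levels of 2.64, 3.11 and 2.78 in F3, against 3.93, 3.93 and 3.90 in the reference. The reference arrays were nearly equal and the F3 arrays spread more, without reaching them. LYS9 fell by 1.08 (SE 0.12, adjusted p = 3.42e-05). LYS1 had levels of 1.63, 1.52 and 1.66 in F3, against 2.89, 2.56 and 2.64 in the reference. Here too no F3 array reached a reference array. LYS1 fell by 1.09 (SE 0.10, adjusted p = 1.14e-05). With quantile normalization LYS1 stood at −0.99 and LYS9 at −0.77, both called but under 2-fold.

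LYS14 (YDR034C, chromosome IV), the activator, was the member whose strains overlapped. Its levels were −1.59, −1.58 and −1.56 in F3, against −1.20, −1.33 and −1.66 in the reference. The F3 arrays were almost equal, and reference replicate 3 lay below them while the other reference arrays lay above. The difference was −0.18 ± 0.12 (SE, 95% interval −0.44 to 0.09, adjusted p = 0.186). Without reference replicate 3 it was −0.31 and called (adjusted p = 0.00931), so this array decides the call, and without reference replicate 1 it was −0.08 (adjusted p = 0.516). Reference replicate 3 was also the only array of its slide and scan, so culture and slide cannot be told apart for it. The interval allows a decrease of LYS14 of up to 0.44, well short of the differences of LYS20, LYS4, LYS9 and LYS1. Over the 6 arrays the named genes with the pattern closest to LYS14 were TOM70, CCT6 and SEC12, with root mean square distances of 0.04, 0.05 and 0.05 log2 units between levels centred on each gene's mean, out of 5184 genes. None of the 3 was called between strains, which follows from their choice by likeness to LYS14 and is no separate result.

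Unequal change within the pathway can be read within an array, where a constant shift of all log2 levels of that array drops out. A difference between scans that depends on signal intensity does not drop out. LYS20 minus LYS21 was −0.51, 0.06 and −0.32 log2 units on the F3 arrays, against 0.71, 0.59 and 0.45 on the reference arrays. All F3 values lay below all reference values, with a difference of −0.84 between the strains. The exact two-sided permutation test over arrays gave p = 0.1, the smallest that 3 arrays against 3 allow, and 0.2 after Benjamini-Hochberg adjustment over the 2 comparisons tested. Both comparisons were planned, but with earlier results of these data known. LYS1 minus LYS9 was −1.00, −1.58 and −1.12 on the F3 arrays, against −1.04, −1.37 and −1.26 on the reference arrays. These overlapped, with a difference of −0.01 (exact permutation p = 1), and F3 replicate 2 was the lowest of the 6. LYS4, picked out after its values were seen and so given without a test, was set against the mean of LYS20, LYS21, LYS12, LYS2, LYS9 and LYS1. That value was −0.91, −0.68 and −0.66 in F3, against 0.68, 0.39 and 0.48 in the reference, a difference of −1.26.

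**Figure D2:**
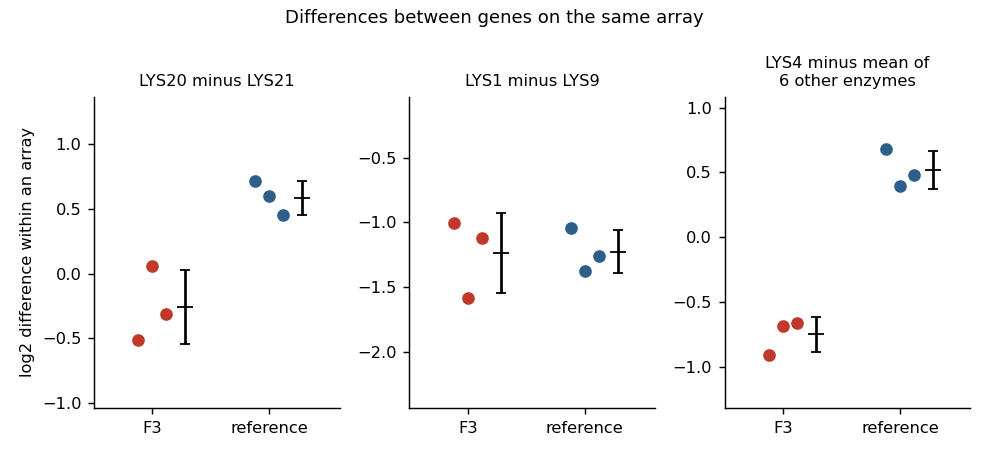
Difference in log2 signal between genes on the same array (points), with the mean and SD of 3 arrays per strain as black bars; each panel spans the same log2 range. LYS20 minus LYS21 and LYS4 minus the mean of 6 other enzyme genes are lower on all F3 arrays, while LYS1 minus LYS9 overlaps between strains.

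The direction for single genes rests on the scaling between arrays. Scaled to the spike-in RNAs, the median of all genes moved to 1.76, with 5092 genes called higher and 255 lower in F3, in place of 2467 higher and 2275 lower. On that scale 7 of the 9 lysine genes were called higher and 0 lower. LYS5 rose by 2.07 (adjusted p = 6.59e-12) and LYS14 by 1.53 (adjusted p = 3.58e-07), while LYS4 was the member still below 0, at −0.44, and was not called (adjusted p = 0.149). LYS20, at 0.54, was not called either (adjusted p = 0.0759). Both scalings subtract a single value per array, so differences relative to the all-gene median are the same by construction. Relative to that median LYS4 stood at −2.19, LYS20 at −1.22, LYS14 at −0.22 and LYS5 at 0.32 with either scaling. The 75th percentile lay 1.30, 1.29 and 1.31 log2 units above the mean spike-in signal on the F3 arrays, against −0.24, −0.07 and −0.94 on the reference arrays. The spike-in scale was therefore steady over F3 and uneven over the reference, where replicate 3 stood lowest. This unevenness is shared by all genes of an array, and each member had the same SE of 0.2955 on this scale. The fit treats that shared offset as if it were separate for each gene. The p-values and counts of calls on the spike-in scale therefore do not measure the spread between cultures.

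**Figure D3:**
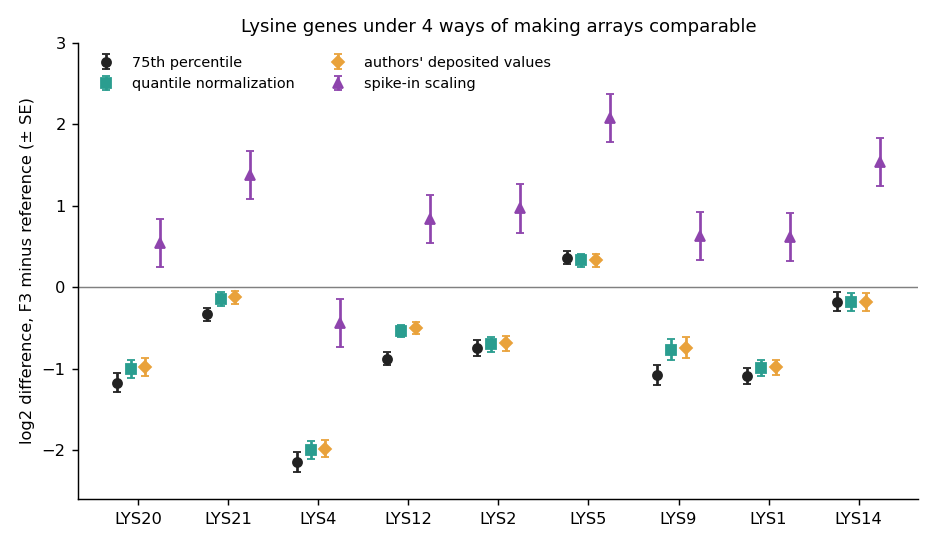
Log2 difference (F3 minus reference) of the 9 lysine genes with its SE, by the 75th percentile, quantile normalization, the authors' deposited values and spike-in scaling. The order of the genes is much alike in all 4, LYS4 lowest and LYS5 highest. Spike-in scaling moves them up together and by construction keeps the order found with the 75th percentile.

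Genes around the pathway were taken as a list of 20, of which 19 were tested and 1, the vacuolar transporter gene VBA3, had no array with a signal well above background. In F3 10 fell, 4 rose and 5 did not pass, with a median difference of −0.28 and strains that did not overlap in 15. Over all tested genes 38.2% fell, 41.5% rose and 82.4% did not overlap. The regulator gene GCN4 fell by 1.86 (SE 0.08, adjusted p = 1.06e-07), with levels of 1.57, 1.69 and 1.66 in F3, against 3.59, 3.47 and 3.43 in the reference. The other regulators were not called: MKS1, once named LYS80 and a brake on the lysine genes, differed by −0.01 (adjusted p = 0.875), and RTG2, a sensor of mitochondrial state, by 0.04 (adjusted p = 0.649).

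Genes of steps shared with other pathways went both ways. ARO8, a transaminase that can make aminoadipate, fell by 0.68 (SE 0.08, adjusted p = 3.96e-05). ARO9, its inducible relative of aromatic amino acid breakdown, rose by 2.28 (SE 0.20, adjusted p = 8.79e-06), with levels of −3.80, −3.10 and −3.83 in F3, against −5.88, −6.08 and −5.61 in the reference. The ARO9 signal was faint in the reference, at 47.3, 72.3 and 101.5 intensity units. Its difference was 1.47 with normexp background correction before percentile scaling and 1.53 with normexp before quantile normalization, both still called. Among enzymes that supply 2-oxoglutarate, the NAD-dependent isocitrate dehydrogenase genes IDH1 and IDH2 rose by 1.22 (SE 0.09) and 1.48 (SE 0.08), whereas IDP1, for the mitochondrial NADP-dependent enzyme, fell by 0.91 (SE 0.10). ODC2, a mitochondrial carrier of oxodicarboxylates, fell by 0.96 (SE 0.09). Its paralog ODC1 rose by 0.27 (adjusted p = 0.0305), a call that was lost at values between 0.18 and 0.29 in 5 alternatives: without F3 replicate 1 or 2, without reference replicate 1 or 2, and with normexp background correction before percentile scaling.

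Of 8 tested genes for the transport and use of lysine, 6 fell and 2 did not pass, beside 38.2% lower and 79.7% called in either direction over all tested genes. LYP1, the lysine permease of the plasma membrane, fell by 0.77 (SE 0.10, adjusted p = 8.14e-05), with levels of 0.57, 0.60 and 0.65 in F3, against 1.19, 1.51 and 1.43 in the reference. ALP1, a related basic amino acid permease, fell by 0.69 (SE 0.15), with a faint signal and spots of the probe up to 0.73 log2 units apart on an array. ALP1 stood at −0.94 with normexp background correction before percentile scaling and at −0.29 with normexp before quantile normalization. CAN1, the arginine permease, differed by −0.22 (adjusted p = 0.0501) and was called at −0.28 to −0.20 in 6 alternatives. The vacuolar transporter genes YPQ1, VBA1 and VBA2 fell by 1.39, 1.14 and 0.28. KRS1, the lysyl-tRNA synthetase of the cytosol, fell by 0.94 (SE 0.11, adjusted p = 4.34e-05), while its mitochondrial counterpart MSK1 differed by −0.09 (adjusted p = 0.364). CCS1, a copper chaperone once named LYS7, differed by −0.06 (adjusted p = 0.538). With spike-in scaling 16 of the 19 were called higher and 0 lower.

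**Figure D4:**
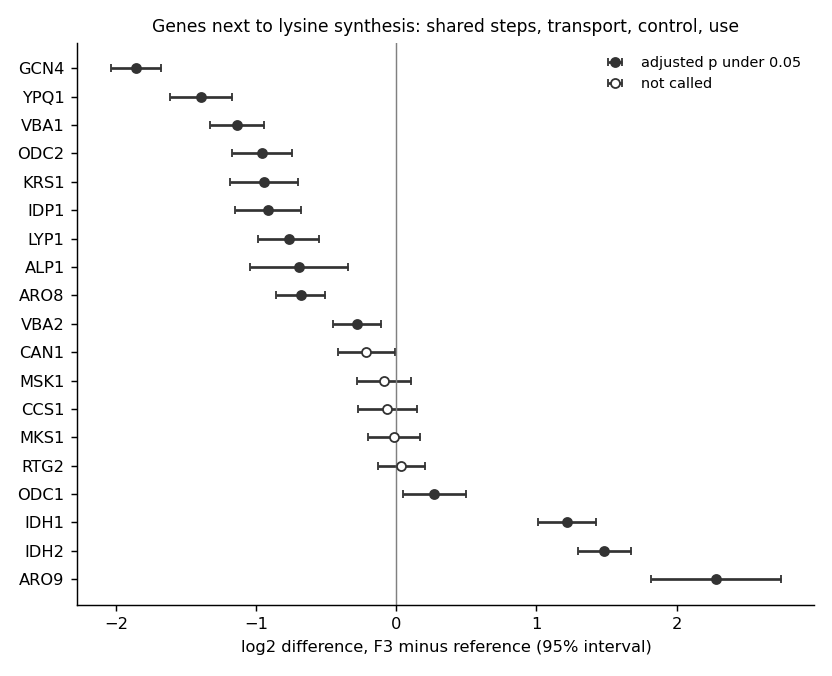
Log2 difference (F3 minus reference) with its 95% interval from the limma fit for the 19 tested genes next to lysine synthesis, filled where adjusted p was under 0.05. GCN4, YPQ1 and VBA1 are the lowest and ARO9, IDH2 and IDH1 the highest.

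Histidine and arginine synthesis, also known targets of Gcn4, give a scale for the lysine genes. Of 7 histidine genes 6 fell and 1 rose, with a median difference of −1.12, from −1.65 for HIS1 to 0.53 for HIS4, beside 38.2% of all tested genes that fell and 41.5% that rose. HIS4 stood at 0.86 with quantile normalization and at 0.90 in the authors' deposited values. Of 9 arginine genes 7 fell and 0 rose, with a median of −0.43, from −1.06 for CPA1 to −0.10 for ARG1 (adjusted p = 0.21). ARG1 turned to a called increase with quantile normalization (0.21, adjusted p = 0.0201) and in the authors' deposited values (0.24, adjusted p = 0.0112). The lysine median of −0.88 lay between these, and the pathways were not tested against each other.

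**Figure D5:**
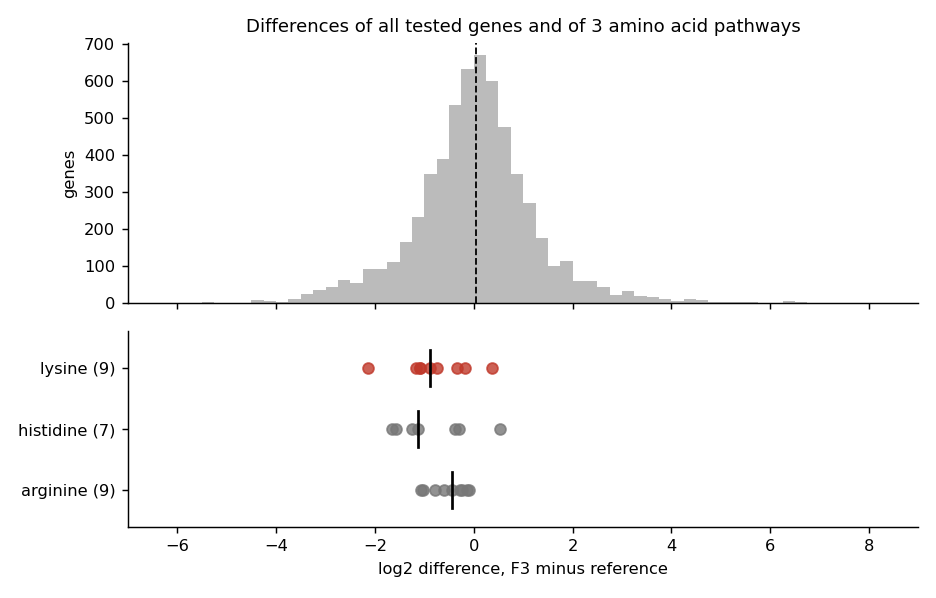
Upper panel: number of tested genes by log2 difference (F3 minus reference), with the all-gene median of 0.05 as a dashed line. Lower panel: the genes of lysine, histidine and arginine synthesis (points) with each median as a bar; the lysine genes run from −2.15 to 0.36.

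Of the genes next to the members on the chromosomes, those called at least 2-fold went both ways. Such changes were common, at 16.2% of all tested genes lower and 16.6% higher. Next to LYS21, STF1, which encodes a partner of the ATP synthase inhibitor, rose by 3.46 (SE 0.15, adjusted p = 1.1e-07). Next to LYS2, TKL2, a minor transketolase, rose by 3.13 (SE 0.09, adjusted p = 1.81e-08), from a faint signal of 35, 51 and 58.5 intensity units in the reference. MRX19, next to LYS20, rose by 1.15, and NRE1, next to LYS1, fell by 1.87 (SE 0.14). The neighbours of LYS4, LYS12, LYS5, LYS9 and LYS14 that have a probe differed by less than 2-fold.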

How the data were processed

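Spot signals were read by the authors with Agilent Feature Extraction, in version 10.7.3.1 per the file headers and 9.1 per the submitters' processing notes. The processed signal in the deposited files is an intensity, background-subtracted and detrended within each array. The authors' deposited table holds log2 values with each probe's median at 0; column medians in F3 were 0.0072, −0.0001 and 0.0102, those of the reference −0.0042, −0.0044 and −0.0109. Its columns followed the scanner values centred alike (r from 0.9877 to 0.9931, slopes from 0.9721 to 0.9916), so scale and direction are known and the scaling between arrays is not.

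Log2 processed signals were averaged over the 2 spots of a probe, and the array's 75th percentile was subtracted. Genes well above background on at least 3 of 6 arrays (5948 of 6256) entered a limma fit (version 3.58.1, R 4.3.3, two-sided, Benjamini-Hochberg, threshold 0.05, tested on simulated data). Groups and replicate numbers came from the sample titles. Replicates are separate cultures per the series' design text. Precision is limited by the 3 arrays per strain. Names and gene order came from RefSeq's R64 gene table (5756 names matched by locus tag, 23 by synonym, 477 unmatched), with genes ordered by start coordinate. No promoter sequences were at hand, so a planned promoter motif search was not run. The normexp alternatives used the median spot signal, since no mean signal was at hand. The members, lists and tests were chosen with earlier results of these data known: genes named are all members, the list around the pathway, less 1 gene planned for it that is not reported here, neighbours called at least 2-fold, the 3 genes most like LYS14, and the extremes of the histidine and arginine lists. ARO3, EHD3, CPP3 and INH1 fall outside this rule and were named after their values were seen. Same-numbered arrays of the strains did not deviate together (r of −0.153, 0.081 and −0.251 across genes).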

Additional observations from a re-analysis of the deposited data

How the results depend on the processing

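Over 16 alternatives, spike-in scaling was the one that turned the direction of a called lysine gene: 0 lysine genes were then lower and 7 higher, the median of the 9 was 0.83, 0 genes of the list around the pathway were lower and 16 higher, and over all genes 255 were lower and 5092 higher. The differences then were 0.54 for LYS20, 1.38 for LYS21, 0.83 for LYS12, 0.97 for LYS2, 0.63 for LYS9, 0.62 for LYS1 and 1.53 for LYS14. In the list around the pathway they were 1.03 for ARO8, 0.75 for ODC2, 0.94 for LYP1, 1.02 for ALP1, 1.49 for CAN1, 0.57 for VBA1, 1.43 for VBA2, 0.32 for YPQ1, 1.70 for MKS1, 1.65 for CCS1, 0.77 for KRS1, 1.62 for MSK1 and 0.80 for IDP1. GCN4 stayed below 0 on the spike-in scale, at −0.15, but was no longer called. A shift of all genes by the same amount on an array is what this setting makes, by construction. Its counts of calls carry the limit given above for the spike-in scale.

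The lysine median was −0.70 with quantile normalization, −0.93 with normexp, −0.67 with normexp and quantile normalization and −0.69 in the authors' deposited values. At least 2-fold decreases numbered 2, 4, 2 and 1 of 9 in these, against 4 with the processed signal and the 75th percentile. Over the 5948 genes tested they numbered 988, 977, 848 and 979, against 963. LYS20, LYS4, LYS12, LYS2, LYS9 and LYS1 were called lower in each of the other 15 alternatives, and LYS5 higher in all 16. LYS1 minus LYS9 within arrays was 0.0356 with normexp, −0.24 in the authors' deposited values and between −0.13 and 0.16 with each array left out, so its sign, like that of ARG1, was not fixed. Without 1 array, LYS20 minus LYS21 lay between −1.00 and −0.71 and LYS4 minus the other enzymes between −1.33 and −1.18. The replicate block gave 7 lower and 1 higher of 9 lysine genes and 2211 lower and 2384 higher over all genes, and the labels do not tie the numbers to a shared batch. The slide as a random block left the lysine counts at 7 and 1. Which RNA amount per cell each strain holds is not measured by these arrays.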

Other observations

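LYS14 and KRS1 stand on either side of ARO3 and EHD3 in gene order on chromosome IV, a stretch picked out after its values were seen. ARO3, an enzyme that opens aromatic amino acid synthesis, and EHD3, a mitochondrial hydrolase, were well above background on 0 of 3 F3 arrays and on 3 of 3 reference arrays. LYS14 and KRS1 were well above background on 3 of 3 arrays of both strains. CPP3, between LYS14 and ARO3, had a mean level of −1.93 in F3, against −4.41 in the reference.

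LYS20 and LYS21 each neighbour a gene of the ATP synthase inhibitor group, INH1 beside LYS20 and STF1 beside LYS21, and INH1 was named after its values were seen. INH1 fell by 0.75 (SE 0.16, adjusted p = 0.00226), while STF1 rose by 3.46.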
